A study of Mus musculus with 29 samples.

Results

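The comparison described here set the cortex of NSG mice against that of wild-type (WT) mice, both without a stroke. The members were chosen by label alone: the 4 libraries labelled genotype NSG and treatment Ctrl, and the 4 labelled genotype WT and treatment Ctrl, 8 of the 29 RNA-sequencing libraries of the series. NSG mice have a NOD background and carry the scid allele of Prkdc together with a null allele of Il2rg, and they were bred in the institute's own facility. The WT mice had a C57BL/6 background and came from a commercial breeder, and the treatment label of both groups gives no agent. Mice of both sexes at 3 months of age were used in the study, and the sex of each Ctrl library is not labelled. The strains therefore differed in their whole genetic background, in their source and in their immune system at once, and these cannot be told apart in this comparison. The study induced photothrombotic strokes in the sensorimotor cortex of 4 kinds of mice, WT, tacrolimus-treated WT, Rag2-/- and NSG, and sequenced polyA RNA weeks later. Its text describes the unstroked tissue in one place as contralesional and in another as that of naïve mice, so whether a Ctrl and a Stroke library came from the same mouse is not settled here. The labels do not say that the libraries of a group came from separate mice, so the p-values below measure spread between libraries only. That spread was estimated within the groups of all 29 libraries, stroked ones included, and not from the 8 libraries alone.

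Prkdc encodes the catalytic subunit of the DNA-dependent protein kinase, which joins DNA ends during rearrangement of the antigen receptor genes, and without it T and B cells do not mature. Il2rg encodes the common gamma chain, a shared subunit of the receptors for IL-2, IL-4, IL-7, IL-9, IL-15 and IL-21, and its loss also removes natural killer (NK) cells. NOD and C57BL/6 are distant inbred strains, which differ in their major histocompatibility (MHC) haplotype, in gene copies present in only one of them and in many sequence variants, and reads of such genes may align differently to a C57BL/6 reference genome.

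The NSG libraries held 34728335, 41093219, 36027335 and 34801144 counts and the WT libraries 38907296, 38298061, 40440384 and 38428427. They are named here by the numbers in their labels, NSG 1 to 4 and WT 1, 3, 4 and 5. Levels are given as CPM, counts scaled to a common TMM-adjusted library size and not to gene length, so levels of different genes are not compared. Markers of cortical excitatory neurons summed to 1571 to 2299 CPM in NSG and 1969 to 2216 CPM in WT, so the labelled tissue was present in all libraries. The 4 sex chromosome genes tested summed to 149 to 156.7 CPM in NSG and 128.8 to 151.7 CPM in WT. Ddx3y, a gene of chromosome Y, had a log2 fold change of 0.02, and of −0.01 to 0.06 over all alternative fits. No imbalance of the sexes between the groups showed in these genes. Tissue next to the cortex varied between libraries. The striatal markers Drd1, Drd2 and Adora2a, receptors for dopamine and adenosine, summed to 38.5, 115, 249 and 316 CPM in NSG 1 to 4 and to 29.6 to 78.3 CPM in WT, with NSG 3 and NSG 4 highest. Ttr, the choroid plexus transthyretin gene, ranged from 4.11 to 1060 CPM over the NSG and from 0.871 to 730 CPM over the WT libraries. The part of these tissues in the results below was not tested beyond the fits without NSG 3 and NSG 4 and with the summed striatal markers as a covariate, both chosen after seeing the data. In bulk tissue, fewer cells of a type and less RNA per cell cannot be told apart.

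The altered genes themselves showed no difference in level. Prkdc stood at 30.9, 29.9, 36.5 and 27.3 CPM in NSG and at 30.3, 30.2, 27.8 and 30.2 CPM in WT, a log2 fold change of 0.07 (SE 0.13, adjusted p = 0.81). The scid allele is a point mutation, so a count per gene does not check it. Il2rg was low in every library, at 1.05, 0.863, 0.822 and 0.681 CPM in NSG and at 0.854, 0.871, 0.716 and 0.742 CPM in WT (log2 fold change 0.10, SE 0.34, adjusted p = 0.91). The groups overlapped, and a count over the whole gene does not show which exons the reads came from, so it does not check the null allele either.

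The locus of Il2rg on chromosome X differed around the gene. Gm614, which lies beside Il2rg (X:101261376-101263992 against X:101264378-101268255, GENCODE M21 on GRCm38), had 78, 69, 77 and 50 counts in the NSG libraries and 0 in each WT library. Gm20489, an annotated transcript unit that spans both (X:101261405-101269023), had 76, 66, 72 and 48 counts in NSG and 13, 9, 18 and 13 in WT, a log2 fold change of 2.34 (SE 0.39, adjusted p = 1.3e-04). Of its 50-base words, 93.35% were also found in Il2rg, and 64.3% of those of Gm614 were found in Gm20489, so how reads were shared out among the 3 models is uncertain. All NSG libraries were above all WT libraries for both units. In the Rag2-/- Ctrl libraries, whose mice have a C57BL/6 background, Gm614 had 0 to 2 counts. The same libraries held B230118H07Rik, a unit of the Rag2 region (2:101560781-101649532), at a mean of 0.0493 CPM, against 14.7 to 15.9 CPM over the NSG and 14.7 to 15.5 CPM over the WT libraries, and Rag2 had no count in NSG or WT.

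Across the transcriptome, 573 of 17031 genes tested were called, 326 higher and 247 lower in NSG than in WT (edgeR quasi-likelihood test with Benjamini-Hochberg adjustment; a call needed an adjusted p under 0.05 together with a log2 fold change beyond 1 in either direction). This was 3.36% of the genes tested, 1.91% in the higher and 1.45% in the lower direction. Differences in level were thus found for a small share of genes, but many of them were large: 122 genes called higher and 111 called lower differed by more than 2 on the log2 scale, and 37 and 36 by more than 4. The median of all genes tested was 0.01. The 4 NSG libraries did not overlap the 4 WT libraries for 292 of the 326 and 234 of the 247 genes, against 21.8% of all genes tested (9.84% higher and 11.9% lower). Without a fold limit 1662 genes had an adjusted p below 0.05, 9.76% of those tested, with 4.84% higher and 4.92% lower. Called genes were mostly of low level, with a median of 1.42 CPM for those higher and 2.61 CPM for those lower in the group with the larger mean, where the median of all genes tested was 16.9 CPM. The share called fell with level, from 9.43% of the genes below 1 CPM to 5.46% of those from 1 to 10 CPM, 0.931% from 10 to 100 CPM and 0.333% (8 genes) above 100 CPM.

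**Figure D1:**
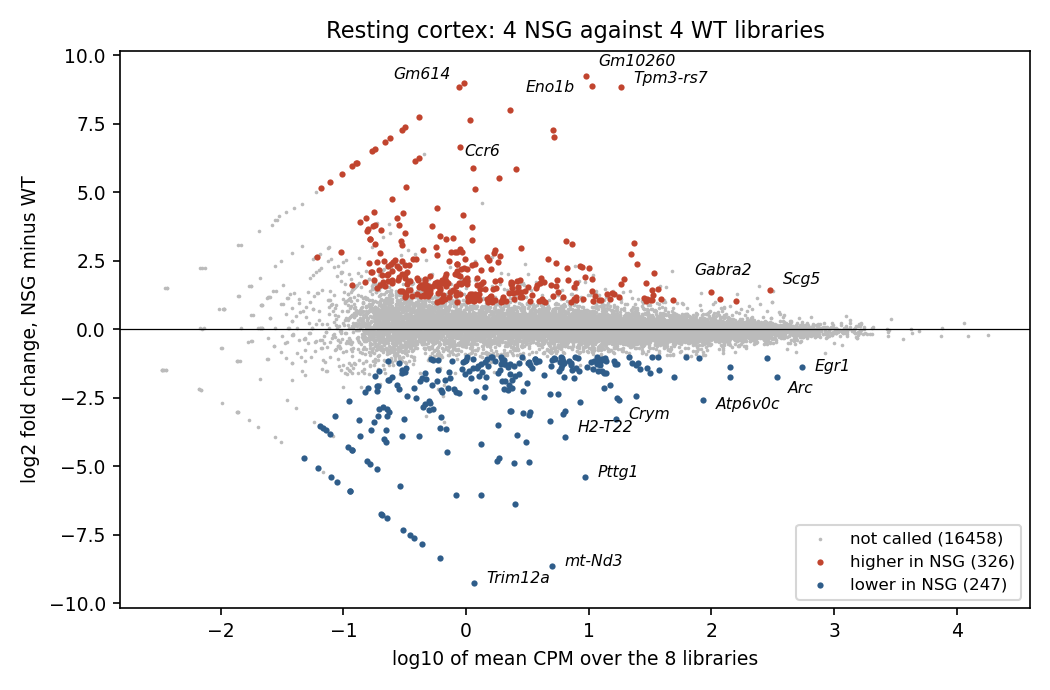
Each point is a gene tested, with the log10 of its mean CPM over the 8 resting libraries on the horizontal axis and the log2 fold change of NSG over WT on the vertical axis. Red points are the 326 genes called higher, blue points the 247 called lower and grey points the genes not called; genes without a read in the 8 libraries are not drawn. Fold changes beyond 5 in either direction sit at mean levels below about 20 CPM.

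The clearest of these genes were read in one strain and at the floor in the other. By the rule of at most 3 counts in every library of one group and at least 30 in every library of the other, 7 genes were on in NSG and 6 were on in WT. Serpina3m, one of a cluster of serine protease inhibitor genes, had 59, 62, 72 and 54 counts in NSG and 0 in each WT library, at least 21.3-fold higher against a floor of 3 counts per library. Zfp990, a zinc finger gene, had 196, 162, 182 and 104 counts in NSG and 0, 1, 1 and 0 in WT, at least 55.4-fold higher. The others on in NSG were Eno1b (at least 259-fold), Gm10260 (at least 231-fold), Gm6034 (at least 26.0-fold), Gm614 (at least 23.6-fold) and Gm4737 (at least 21.6-fold).

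In the other direction, Trim12a, a member of the TRIM family next to the antiviral restriction factor gene Trim5, had 0 counts in all NSG libraries and 79, 84, 94 and 81 in WT, at least 27.1-fold lower. Rec8, which encodes a meiotic cohesin subunit, had 0, 1, 1 and 3 counts in NSG and 95, 108, 81 and 97 in WT, at least 30.6-fold lower. The remaining ones were mt-Nd3 (at least 117-fold lower), Gm5148 (at least 58.1-fold), the olfactory receptor gene Olfr316 (at least 19.0-fold) and Gm16867 (at least 14.4-fold). Rag2-/- cortex stood with WT for nearly all of them: its libraries were at the floor for 6 of the 7 genes on in NSG, Eno1b reaching 5 counts, and on for 6 of the 6 genes on in WT. These limits cover counting error only.

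**Figure D2:**
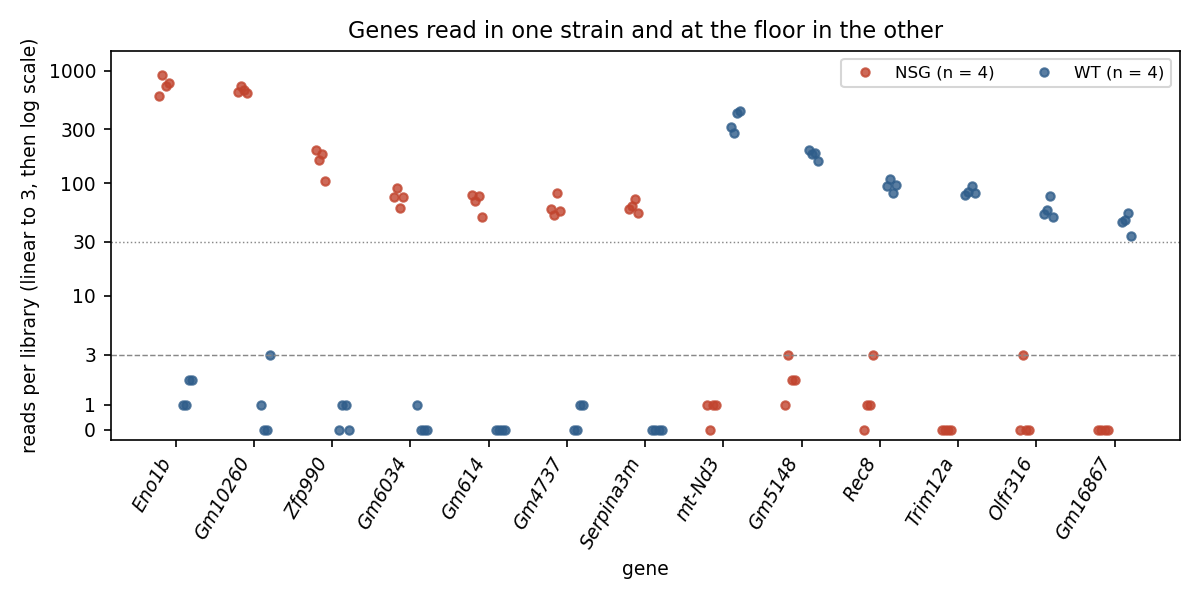
Reads per library, on a scale that is linear up to 3 and logarithmic above, for the 13 genes read in one strain and at the floor in the other; each point is 1 of the 4 NSG (red) or 4 WT (blue) libraries. The dashed line marks 3 counts and the dotted line 30 counts, and no point lies between them.

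Several of the largest values belonged to genes with a near-identical copy elsewhere in the genome. Of the genes tested, 3.12% shared at least 50% of their 50-base words with another annotated gene, against 7.98% of the called higher and 10.2% of the called lower genes. Without them, 522 genes remained called. Gm10260, an intronless copy of the ribosomal protein gene Rps18 on chromosome 13, held 18.7, 18.6, 19.0 and 19.7 CPM in NSG and 0.0285, 0, 0 and 0.0825 CPM in WT. Rps18 itself held 21.3, 24.5, 25.8 and 24.6 CPM in NSG and 46.4, 47.5, 54.2 and 46.8 CPM in WT (log2 fold change −1.02, SE 0.16, adjusted p = 7.4e-05). Without NSG 1 or without WT 4 the change of Rps18 was −0.96 and no longer past the fold limit. The sum of both was 43.1 ± 2.15 CPM (SD, n = 4) in NSG and 48.7 ± 3.66 CPM (SD, n = 4) in WT, without overlap, and Gm10260 took 44.1% of it in NSG and 0.0569% in WT. The 2 coding sequences differ at 4 of 456 bases in the C57BL/6 reference. The stretches printed next, read from GENCODE M21 transcripts on GRCm38, show how little sequence separates the copies, with the differing bases in capitals; that of Rps18 runs over an intron of 17:33952071-33952292 on the minus strand, and that of Gm10260 over 13:97760158-97760277 on the minus strand.
Rps18: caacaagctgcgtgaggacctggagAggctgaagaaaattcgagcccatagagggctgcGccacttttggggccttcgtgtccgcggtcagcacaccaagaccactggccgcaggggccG
Gm10260: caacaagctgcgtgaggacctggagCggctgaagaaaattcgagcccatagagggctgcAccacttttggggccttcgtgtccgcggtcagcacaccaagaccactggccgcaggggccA

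Tpm3-rs7, an intronless copy of the tropomyosin gene Tpm3, followed the same pattern. Its level was 33.9, 37.8, 35.7 and 37.7 CPM in NSG and 0.0285, 0.0544, 0.053 and 0.165 CPM in WT (log2 fold change 8.84, SE 0.31, adjusted p = 5.5e-17). Tpm3 held 56.2, 59.1, 59.8 and 58.4 CPM in NSG and 114, 106, 106 and 118 CPM in WT (log2 fold change −0.93, SE 0.07, adjusted p = 2.4e-10). Their sum was 94.7 ± 3.07 CPM (SD, n = 4) in NSG and 111 ± 5.98 CPM (SD, n = 4) in WT, of which Tpm3-rs7 took 38.3% and 0.0677%. The coding sequences differ at 3 of 744 bases, all 3 within the stretch printed here from 3:90079739-90079858 (Tpm3) and 14:113314683-113314802 (Tpm3-rs7), both on the plus strand.
Tpm3: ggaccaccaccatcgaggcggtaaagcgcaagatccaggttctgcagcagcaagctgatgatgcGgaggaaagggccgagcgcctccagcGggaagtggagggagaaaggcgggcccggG
Tpm3-rs7: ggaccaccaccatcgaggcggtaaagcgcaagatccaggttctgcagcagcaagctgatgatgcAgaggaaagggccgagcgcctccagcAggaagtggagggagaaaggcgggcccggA

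The adult alpha globin genes Hba-a1 and Hba-a2, which encode the same hemoglobin chain, differ at 1 of 426 coding bases and moved in opposite directions. Hba-a2 held 0.117, 0.0254, 0.0283 and 0.0619 CPM in NSG and 0.655, 0.435, 2.55 and 1.76 CPM in WT (log2 fold change −4.48, SE 0.78, adjusted p = 2.7e-04). Hba-a1 held 3.95, 26.9, 6.18 and 7.02 CPM in NSG and 1.57, 0.571, 3.79 and 3.41 CPM in WT (log2 fold change 2.24, SE 0.64, adjusted p = 0.023), a call that was lost without NSG 2 (log2 fold change 1.29), WT 1 (2.09) or WT 3 (1.91). The sum of the pair was 11.1 ± 10.7 CPM (SD, n = 4) in NSG and 3.68 ± 2.49 CPM (SD, n = 4) in WT and overlapped between the groups. Erythrocyte RNA in a sample varies with the blood left in the tissue, and blood markers summed to 13.4 to 86.9 CPM in NSG and 3.18 to 19.4 CPM in WT. The single differing base, in capitals, ends the stretches of 11:32296907-32297160 (Hba-a2) and 11:32284090-32284343 (Hba-a1), each spanning an intron on the plus strand.
Hba-a2: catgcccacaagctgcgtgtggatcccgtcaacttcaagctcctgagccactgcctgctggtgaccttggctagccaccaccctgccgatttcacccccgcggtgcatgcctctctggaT
Hba-a1: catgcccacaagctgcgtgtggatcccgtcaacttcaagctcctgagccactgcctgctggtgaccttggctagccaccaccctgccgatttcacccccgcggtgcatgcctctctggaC

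Other pairs of this kind were Eno1b with the glycolytic enolase gene Eno1 and AC117239.2 with the mitochondrial chaperonin gene Hspe1. Eno1b took 9.93% of the reads of its pair in NSG and 0.0158% in WT, while Eno1 had a log2 fold change of −0.43 (SE 0.09, adjusted p = 0.003). AC117239.2 took 60.6% of its pair in NSG and 0.367% in WT, with a sum of 17.0 ± 2.24 CPM (SD, n = 4) and 20.3 ± 2.19 CPM (SD, n = 4) that overlapped between the groups. Of the 48 called genes with a tested partner that shared at least 20% of their 50-base words, 10 had a partner called in the other direction and 11 a partner called in the same direction. The split of reads within such a pair is uncertain, since the aligner and its handling of reads with several matches are not given in the sources used here.

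**Figure D3:**
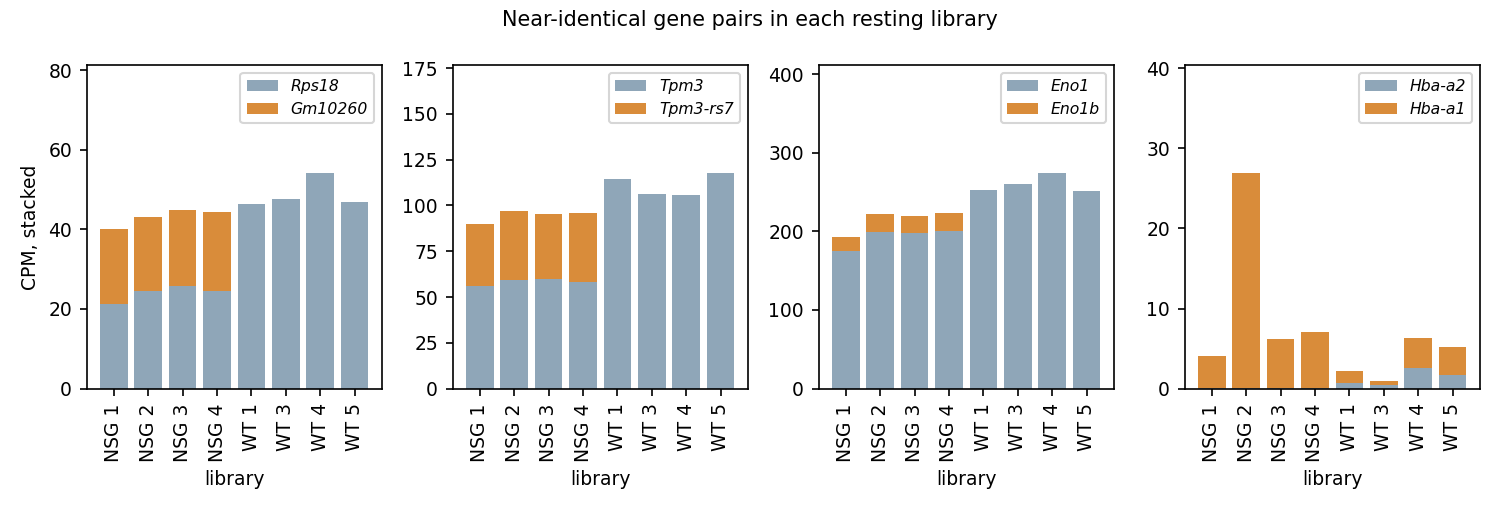
Stacked CPM of 4 near-identical gene pairs in each of the 8 resting libraries, with the gene in grey-blue and its copy in orange. In the pairs of Rps18, Tpm3 and Eno1 the copy is visible in the 4 NSG libraries only, and in the alpha globin pair Hba-a2 is visible in WT only, with NSG 2 at the highest sum.

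Among antigen presentation genes, 3 of 22 MHC class I genes tested fell in NSG and none rose (13.6% called, against 3.36% of all genes and 1.45% in the lower direction, median log2 fold change −0.10). H2-T22, a non-classical class I gene, held 0.907, 0.508, 0.737 and 1.05 CPM in NSG and 11.3, 13.1, 11.4 and 12.2 CPM in WT (log2 fold change −3.91, SE 0.22, adjusted p = 1.1e-12). H2-T23, which encodes Qa-1, a ligand of inhibitory NK cell receptors, held 1.29, 1.35, 1.79 and 1.33 CPM in NSG and 10.6, 12.6, 12.04 and 10.03 CPM in WT (log2 fold change −2.98, SE 0.23, adjusted p = 4.5e-10). H2-K1, a classical class I heavy chain, held 7.11, 6.02, 5.73 and 5.97 CPM in NSG and 16.3, 17.7, 18.3 and 18.2 CPM in WT (log2 fold change −1.51, SE 0.28, adjusted p = 5.5e-04). For all 3 genes the strains were apart in every library. The list does not hold every class I gene: H2-T10, outside it, was called higher (log2 fold change 1.08, adjusted p = 0.003) and is described with its neighbours below. The other classical heavy chain measured, H2-D1, had a log2 fold change of −0.11 (SE 0.30, adjusted p = 0.88), and B2m, the light chain, stood at 52.1 to 56.7 CPM in NSG and 86.9 to 101 CPM in WT, with a log2 fold change of −0.79 (SE 0.22, adjusted p = 0.021) that was under the fold limit. The NOD and C57BL/6 strains carry different H2 haplotypes, and whether reads of another haplotype were lost in alignment was not tested.

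The class II list split, with 1 of 11 genes called higher and 1 lower (18.2% called, against 3.36% of all genes, median −0.09). H2-DMb2, a chain of the peptide exchange factor of class II molecules, was at 0.556, 0.609, 0.794 and 0.681 CPM in NSG and at 0.228, 0.245, 0.133 and 0.247 CPM in WT (log2 fold change 1.62, SE 0.33, adjusted p = 0.0014). H2-Oa, a chain of the molecule that restrains that exchange, was at 0.0585, 0.102, 0.142 and 0.0928 CPM in NSG and at 0.256, 0.462, 0.265 and 0.192 CPM in WT (log2 fold change −1.54, SE 0.37, adjusted p = 0.0073). Neither gene overlapped between the strains, but the adjusted p of H2-Oa was 0.067 without WT 3.

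The defining T cell genes were at the edge of detection in both strains, while other genes of the lymphocyte lists were not. Cd3e, a T cell receptor chain, had no count in the NSG libraries and 0.0569, 0.0272, 0.0265 and 0.110 CPM in WT (log2 fold change −3.94, SE 1.32, adjusted p = 0.061), and Cd3d had no count in either. With so few reads, a loss of T cells was not detectable at this depth from these genes. Cd4, which other brain cells also express, ranged from 3.66 to 35.5 CPM in NSG and from 3.39 to 9.62 CPM in WT, and Trbc2 from 2.41 to 12.3 CPM in NSG and from 7.28 to 10.6 CPM in WT, both with overlap. None of 15 T cell genes tested was called by edgeR or DESeq2, and their median was 0.09. At an unadjusted p below 0.05, 3 were higher and 1 lower, where 3894 of all 17031 genes tested were past that limit. Counts of this kind in the lists that follow stand against that number. None of the 9 B cell genes was called by edgeR, with 2 lower at an unadjusted p below 0.05 and 1 called lower by DESeq2. Ighm, the immunoglobulin heavy chain constant region of IgM, held 38.7, 52.9, 17.7 and 41.95 CPM in NSG and 46.7, 45.5, 46.3 and 41.3 CPM in WT, and the groups overlapped. None of the 4 NK cell genes was called by edgeR, where 1 was higher at an unadjusted p below 0.05 and 1 was called higher by DESeq2.

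Of 19 tested genes of common gamma chain cytokine signalling, 1 was called higher and 1 lower (10.5% called, against 3.36% of all genes, median −0.01). Il7r, the receptor chain that pairs with the common gamma chain to bind IL-7, was at 1.37, 1.57, 1.36 and 1.70 CPM in NSG and at 0.285, 0.299, 0.371 and 0.330 CPM in WT (log2 fold change 2.21, SE 0.56, adjusted p = 0.011). Il15, the cytokine that sustains NK cells, went the other way, at 0.0585, 0.0762, 0.113 and 0.155 CPM in NSG and at 0.285, 0.381, 0.557 and 0.632 CPM in WT (log2 fold change −2.18, SE 0.41, adjusted p = 7.2e-04). Neither overlapped between the strains. The 14 DNA end joining genes, the partners of Prkdc, had 0 calls by edgeR and 0 by DESeq2, with a median of 0.01. At an unadjusted p below 0.05, 2 were higher and 1 lower, where 3894 of all 17031 genes were past it.

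Innate immune genes differed in both directions. Of 25 innate receptor and phagocytosis checkpoint genes, 3 were called higher and 1 lower (16.0% called, against 3.36% of all genes, 1.91% higher and 1.45% lower, median 0.13). Tlr1, which forms a lipoprotein receptor with Tlr2, held 3.33, 3.02, 2.95 and 2.75 CPM in NSG and 0.399, 0.354, 0.557 and 0.302 CPM in WT (log2 fold change 2.89, SE 0.43, adjusted p = 3.6e-05). Its neighbour and relative Tlr6 held 1.43, 1.04, 1.13 and 0.990 CPM in NSG and 0.313, 0.517, 0.292 and 0.550 CPM in WT (log2 fold change 1.45, SE 0.30, adjusted p = 0.002). The inflammasome sensor genes Nlrp1a and Nlrp1b, which lie side by side, moved apart: Nlrp1a rose by 2.57 (SE 0.52, adjusted p = 0.0015), and Nlrp1b had a log2 fold change of −1.07 (SE 0.34, adjusted p = 0.045) that was lost without NSG 2, NSG 3, NSG 4, WT 1, WT 4 or WT 5 (adjusted p from 0.073 to 0.14). In the family of interferon-inducible DNA sensors, Ifi202b held 0.263, 0.127, 0.340 and 0.217 CPM in NSG with no count in any WT library, and Ifi213 held 0.228, 0.109, 0.212 and 0.165 CPM in WT with no count in NSG. The call of Ifi213 (adjusted p = 0.022) was lost without NSG 2 (0.050) or NSG 3 (0.054). The other interferon-stimulated genes did not follow: of 33, none was called by edgeR or DESeq2, with a median of 0.18. At an unadjusted p below 0.05, 1 was higher and 2 lower, where 3894 of all 17031 genes were past it.

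Ccr6, a chemokine receptor known from lymphocytes and dendritic cells, was among the largest differences that had no near-identical copy, at 2.28, 2.08, 2.32 and 2.29 CPM in NSG and at 0.114, 0, 0 and 0.0275 CPM in WT (log2 fold change 5.88, SE 0.67, adjusted p = 6.1e-07). Of 26 chemokine ligands, Ccl17 (log2 fold change 1.58, SE 0.34, adjusted p = 0.0026) and Ccl24 (1.63, SE 0.49, adjusted p = 0.034) were called higher and none lower (7.69% called, against 3.36% of all genes). The median of the list was 0.49, but its summed level lay the other way, at 920.2 to 1116 CPM in NSG and 1140 to 1250 CPM in WT. The call of Ccl24, which stayed under 0.25 CPM in every library, was lost without NSG 2, NSG 4, WT 3, WT 4 or WT 5 (adjusted p from 0.062 to 0.10) and with DESeq2 (0.099). In the complement list 1 of 17 genes was called (5.88%, against 3.36% of all genes): Cd59a, which shields cells from the membrane attack complex, held 15.2, 12.2, 16.0 and 15.9 CPM in NSG and 3.16, 4.08, 4.85 and 3.52 CPM in WT (log2 fold change 1.92, SE 0.25, adjusted p = 4.7e-06). The strains were apart in every library.

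Microglial genes showed small differences, nearly all of them under the fold limit. Of 17 homeostatic microglia genes, 12 had a log2 fold change above 0, 10 did not overlap between the strains (against 21.8% of all genes tested) and the median was 0.21, against 0.01 for all genes tested. P2ry12, the purinergic receptor that guides microglial processes, held 43.7, 46.2, 48.5 and 54.7 CPM in NSG and 38.5, 27.0, 33.5 and 29.02 CPM in WT (log2 fold change 0.59, SE 0.13, adjusted p = 0.0027). P2ry13 (0.69, SE 0.12, adjusted p = 2.2e-04) and Tmem119 (0.44, SE 0.11, adjusted p = 0.0082) were the other 2 that were higher at an adjusted p below 0.05 without a fold limit, against 4.84% of all genes. The exception was Fcrls, an Fc receptor-like gene of mouse microglia, which held 5.94, 7.92, 7.17 and 7.18 CPM in NSG and 17.97, 16.7, 19.0 and 16.5 CPM in WT (log2 fold change −1.31, SE 0.25, adjusted p = 6.4e-04) and was the only called gene of the list (5.88%, against 3.36% of all genes). Microglial markers chosen for the tissue check summed to 112.7 to 136.8 CPM in NSG and 75.5 to 96.1 CPM in WT.

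Astrocyte genes gave a single call (7.14% of the list, against 3.36% of all genes). Of 14 astrocyte genes 1 was called, Serpina3n, a protease inhibitor gene that rises in reactive astrocytes, at 45.7, 42.2, 59.2 and 45.3 CPM in NSG and at 18.1, 16.9, 19.4 and 16.8 CPM in WT (log2 fold change 1.43, SE 0.41, adjusted p = 0.024). No library of one strain reached the other, but the adjusted p lay between 0.051 and 0.072 when NSG 3, WT 1, WT 3, WT 4 or WT 5 was left out. Gfap, the astrocyte intermediate filament gene, was at 304, 243, 268 and 225 CPM in NSG and at 134, 102, 162 and 172 CPM in WT, also without overlap, with a log2 fold change of 0.87 (SE 0.32, adjusted p = 0.085) that missed the threshold.

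Several genes of neurons were called at high CPM. Scg5, a chaperone of prohormone processing, held 398, 470, 358 and 534 CPM in NSG and 162, 169, 167 and 156 CPM in WT (log2 fold change 1.43, SE 0.17, adjusted p = 1.5e-06). Gabra2, an alpha subunit of the GABA-A receptor and the only call among 40 glutamate and GABA receptor subunits tested (2.5%, against 3.36% of all genes), held 123.4, 124, 181 and 140 CPM in NSG and 61.6, 49.8, 53.3 and 56.5 CPM in WT (log2 fold change 1.36, SE 0.13, adjusted p = 3.1e-08). A small intronic deletion that lowers Gabra2 is known from C57BL/6J mice. Pla2g4e, a cytosolic phospholipase A2 gene, held 57.9, 60.8, 47.6 and 53.7 CPM in NSG and 14.5, 16.6, 13.6 and 8.80 CPM in WT (log2 fold change 2.04, SE 0.23, adjusted p = 5.5e-07). The levels of these 3 genes were separate in every library.

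Adarb2, an RNA-editing family gene and interneuron marker, had a log2 fold change of 1.27 (SE 0.17, adjusted p = 8.1e-06), and Lpl, lipoprotein lipase, of 1.47 (SE 0.32, adjusted p = 0.003). Wdfy1, an endosomal adaptor gene listed here for its known difference between inbred strains, held 46.7, 43.3, 46.8 and 43.3 CPM in NSG and 12.4, 15.9, 13.8 and 14.2 CPM in WT (log2 fold change 1.68, SE 0.11, adjusted p = 2.3e-11). Nnat, Necab2 and Htr2c were highest in NSG 3, one of the libraries high in striatal markers, at 296, 99.1 and 91.3 CPM, and none of the 3 was called without that library (log2 fold change 0.62, 0.80 and 0.70) or with the striatal markers as a covariate (0.65, 0.64 and 0.85). Their calls were also lost without WT 1 or WT 4 (adjusted p from 0.055 to 0.12), those of Nnat and Necab2 without WT 3, that of Htr2c without NSG 1, that of Necab2 without NSG 4 and all 3 without WT 5 (adjusted p from 0.058 to 0.10). Wfs1 had a log2 fold change of 1.04 (SE 0.16, adjusted p = 3.9e-05), which was 0.88 without NSG 3 and 0.99 without WT 3. Lhx8, a transcription factor of forebrain cholinergic neurons, was at 0.497, 0.457, 4.99 and 2.35 CPM in NSG and at 0.106 to 0.256 CPM in WT, and its adjusted p was 0.059 without NSG 3. The calls of Wfs1 and Lhx8 were also lost with the striatal markers as a covariate. Those of Wfs1, Lhx8 and Lpl were lost without NSG 3 and NSG 4 together. The 14 genes of striatum, thalamus and midbrain had a median of 1.11. It was 0.09 with the striatal markers, genes of the same kind, as a covariate. With Ddx3y as a covariate, a gene of chromosome Y that was itself level between the strains (log2 fold change 0.02), it was 0.05. The single call among the 14 (7.14%, against 3.36% of all genes), Tph2, rested on WT 3 (19.6 CPM, other libraries 0.482 to 1.64 CPM) and fell to a log2 fold change of −0.86 without it.

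Crym, which encodes a thyroid hormone-binding protein and marks deep-layer cortical neurons, was the only 1 of 18 layer and projection neuron genes called (5.56%, against 3.36% of all genes), at 3.16, 2.82, 4.99 and 1.52 CPM in NSG and at 34.1, 27.1, 27.9 and 31.4 CPM in WT (log2 fold change −3.27, SE 0.30, adjusted p = 1.5e-08). The strains were apart by more than the spread within either, and the median of its list was −0.12. Atp6v0c, the proteolipid subunit of the vacuolar proton pump, held 21.2, 26.2, 24.1 and 26.4 CPM in NSG and 136, 143, 155 and 155 CPM in WT (log2 fold change −2.59, SE 0.10, adjusted p = 1.1e-15). Pttg1, securin of the chromosome segregation machinery, held 0.497, 0.406, 0.482 and 0.309 CPM in NSG and 16.8, 18.7, 19.1 and 17.8 CPM in WT (log2 fold change −5.40, SE 0.17, adjusted p = 1.0e-17). Hjurp, a chaperone of the centromeric histone, was at 20.04 to 24.4 CPM in NSG and at 66.1 to 88.1 CPM in WT (log2 fold change −1.75, SE 0.12, adjusted p = 9.1e-11), and Mrs2, a mitochondrial magnesium channel, at 48.7 to 54.0 and 104 to 109 CPM (log2 fold change −1.05, SE 0.08, adjusted p = 1.3e-10). Abcb1b, a P-glycoprotein drug efflux pump gene, was at 0.124 to 0.526 CPM in NSG and at 2.61 to 3.71 CPM in WT (log2 fold change −3.49, SE 0.27, adjusted p = 5.6e-10). In the endothelial list of 18 genes, 1 was called (5.56%, against 3.36% of all genes), Ly6a, at 3.20 to 4.45 CPM in NSG and 7.74 to 9.07 CPM in WT (log2 fold change −1.19, SE 0.22, adjusted p = 6.5e-04).

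Immediate early genes, which neurons switch on within minutes of activity, lay on the same side throughout. Of 25 tested, 25 had a log2 fold change below 0, where 8312 of all 17031 genes did, and their median was −0.88. Of these, 8 were called lower (32% of the list against 1.45% of all genes) and 15 had an adjusted p below 0.05 without a fold limit (against 4.92% of all genes in the lower direction). Their summed level was 1116 to 1661 CPM in NSG and 2055 to 4249 CPM in WT. Egr1, a zinc finger transcription factor of the early response, held 234, 398, 308 and 275 CPM in NSG and 600, 630, 1004 and 937 CPM in WT (log2 fold change −1.38, SE 0.21, adjusted p = 5.1e-05). Nr4a1, an orphan nuclear receptor gene, held 59.8, 109, 95.6 and 52.6 CPM in NSG and 124, 200, 349 and 146 CPM in WT (log2 fold change −1.37, SE 0.29, adjusted p = 0.0021), and its change was −0.99 without WT 4. Both were lower in every NSG library than in any WT library.

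Among the other called members, Arc, Fos, Egr2 and Fosb overlapped between the strains, and Egr3 and Ptgs2 did not. Arc, which encodes a synaptic capsid-like protein, held 116, 248, 157 and 112 CPM in NSG and 190, 476, 954 and 481 CPM in WT (log2 fold change −1.73, SE 0.41, adjusted p = 0.0056), with WT 1 below NSG 2. Fos, a subunit of the AP-1 factor, held 9.53, 26.7, 31.4 and 11.5 CPM in NSG and 20.8, 56.1, 103 and 39.4 CPM in WT (log2 fold change −1.47, SE 0.41, adjusted p = 0.020). The call of Fos was lost without NSG 1 (−1.24, adjusted p = 0.073), NSG 4 (−1.28, adjusted p = 0.074) or WT 4 (−0.97, adjusted p = 0.15). Egr2 was at 1.67 to 11.2 CPM in NSG and 7.004 to 51.7 CPM in WT (log2 fold change −2.03, SE 0.51, adjusted p = 0.0095), and was not called without WT 4 (−1.34, adjusted p = 0.093). Egr3 had a log2 fold change of −1.05 (SE 0.18, adjusted p = 1.7e-04), close to the fold limit, and moved to between −0.94 and −0.98 without NSG 1, NSG 3, WT 4 or WT 5. Fosb (−1.22, SE 0.32, adjusted p = 0.014) was lost without NSG 1 (adjusted p = 0.055), WT 4 (0.063) or WT 5 (0.071), and Ptgs2, the inducible cyclooxygenase gene (−1.13, SE 0.28, adjusted p = 0.0095), was kept without any single library. WT 4 was the highest library for Egr1, Arc, Nr4a1, Fos and Egr2, and without it 3 immediate early genes were called, while 16 were called without WT 1. With the striatal markers as a covariate the median of the list was −0.72 and 2 genes were called. Lists that vary with stress or time of day lay on the same side, as did lists of other kinds. Without overlap, splicing genes summed to 4371 to 4775 CPM in NSG and 4803 to 5173 CPM in WT. Glutamate and GABA receptor subunits summed to 6579 to 6848 CPM in NSG and 7063 to 7821 CPM in WT. The sums of the homeostatic microglia list and of the striatum, thalamus and midbrain list were higher in NSG, also without overlap. The 10 heat and cold shock genes summed to 1592 to 1736 CPM in NSG and 2176 to 2551 CPM in WT, without overlap. Of the 10, 9 lay below 0, the median was −0.37 and 5 did not overlap (against 21.8% of all genes, 11.9% lower). At an adjusted p below 0.05, 4 were lower and 1 higher (against 4.92% and 4.84% of all genes). The call among them was Hspa1a, an inducible chaperone gene (−1.35, SE 0.22, adjusted p = 1.1e-04), which was −0.96 without WT 5. The 16 glucocorticoid-responsive genes summed to 505.3 to 524.5 CPM in NSG and 558.6 to 736.5 CPM in WT, also without overlap, with a median of −0.31, 12 below 0 and 8 without overlap (against 21.8% of all genes). None was called by edgeR or DESeq2, with 2 lower at an adjusted p below 0.05 (against 4.92% of all genes). At an unadjusted p below 0.05, 1 was higher and 6 lower, where 3894 of all 17031 genes were past it. The 16 circadian clock genes summed to 1494 to 1600 CPM in NSG and 1679 to 1956 CPM in WT, again without overlap, with a median of −0.12 and 11 below 0. None was called by either tool, with 2 lower at an adjusted p below 0.05 (against 4.92% of all genes). At an unadjusted p below 0.05, 1 was higher and 5 lower, where 3894 of all 17031 genes were past it. The part of handling or of the hour of sampling in the immediate early genes was not tested. The time of day and the order in which tissue was taken are not labelled.

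**Figure D4:**
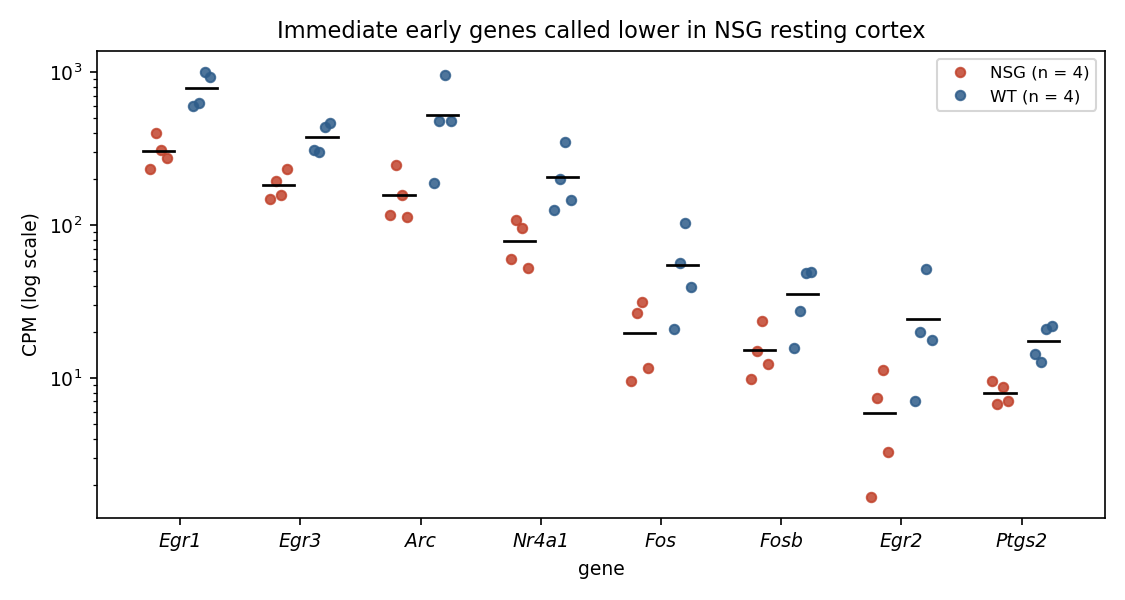
CPM on a logarithmic scale of the 8 immediate early genes called lower in NSG, in the 4 NSG (red) and 4 WT (blue) resting libraries, with black bars at the group means. The groups are apart for Egr1, Egr3, Nr4a1 and Ptgs2 and overlap for Arc, Fos, Fosb and Egr2.

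Many promoters of this group hold the CREB-type motif TGACG, through which cyclic AMP and calcium signals act on early genes. In the 250 bases before the start of 27025 mouse genes in a RefSeq table (GRCm38.p6), the motif stood on either strand (TGACG or CGTCA) before 19.8%, and before 15 of the 19 immediate early genes found in that table (78.9%). Where a gene had several starts (32851 in all), the one with the most copies counted. At least 2 copies stood before 4.46% of all genes and before 10 of those 19. Only 5 of the 8 immediate early genes called lower were in that table, without Egr1, Egr3 and Arc. The motif stood before 4 of these 5 and not before Ptgs2. The promoters of Fos (12:85473640-85473889, plus strand), with 2 copies, and of Nr4a1 (15:101266596-101266845, plus strand), with 4, are printed as the examples named above, with the motif in capitals. At least 4 copies stood before 0.163% of all genes. A match of letters is a description and not a measured binding site.
Fos: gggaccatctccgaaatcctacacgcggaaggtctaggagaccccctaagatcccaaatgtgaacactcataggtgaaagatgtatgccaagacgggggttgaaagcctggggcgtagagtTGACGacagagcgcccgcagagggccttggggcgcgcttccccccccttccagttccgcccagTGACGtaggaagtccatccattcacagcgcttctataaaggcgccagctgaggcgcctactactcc
Nr4a1: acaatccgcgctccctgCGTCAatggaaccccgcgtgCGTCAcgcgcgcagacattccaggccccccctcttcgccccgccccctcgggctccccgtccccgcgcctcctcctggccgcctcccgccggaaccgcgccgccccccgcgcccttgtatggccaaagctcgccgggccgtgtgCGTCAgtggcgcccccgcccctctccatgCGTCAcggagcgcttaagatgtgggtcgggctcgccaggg

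Ribosomal and mitochondrial genes were mostly level between the strains, with a few large exceptions. Of 80 cytosolic ribosomal protein genes 4 were called lower and 0 higher (5.0% called, against 3.36% of all genes, median 0.02). Rpl34 held 5.12, 5.36, 4.14 and 5.82 CPM in NSG and 28.3, 29.1, 33.6 and 30.8 CPM in WT (log2 fold change −2.58, SE 0.19, adjusted p = 1.9e-10), and Rpl35a held 6.41, 7.44, 7.34 and 8.66 CPM in NSG and 33.9, 40.02, 42.7 and 46.4 CPM in WT (log2 fold change −2.45, SE 0.15, adjusted p = 5.2e-12). Rpl29 (−1.44, SE 0.15, adjusted p = 1.5e-07) and Rps18 were the others. Of their 50-base words, Rpl29 shared 33.5% and Rps18 21.8% with another annotated gene, but Rpl34 7.02% and Rpl35a 5.56%. Of 95 nuclear genes of oxidative phosphorylation, 1 was called higher and 2 lower (3.16% called, near the 3.36% of all genes, median 0.05). Ndufs5, an accessory subunit of complex I, held 0.819, 0.736, 1.13 and 0.742 CPM in NSG and 8.91, 9.71, 8.35 and 8.08 CPM in WT (log2 fold change −3.35, SE 0.26, adjusted p = 5.2e-10). Cox6a2, a subunit of complex IV, had a log2 fold change of −2.36 (SE 0.25, adjusted p = 2.0e-07) and Atp5e, of the ATP synthase, of 1.15 (SE 0.30, adjusted p = 0.012). On the mitochondrial genome 2 of 13 genes were called (15.4%, against 3.36% of all genes), the neighbouring complex I genes mt-Nd3 (M:9459-9806) and mt-Nd4l (M:9877-10173). The first had 1, 0, 1 and 1 counts in NSG and 316, 278, 424 and 441 in WT, and mt-Nd4l had none in NSG and 0.159 to 0.275 CPM in WT. Of the 50-base words of mt-Nd3, 93.6% are shared with Gm28438, and of those of mt-Nd4l, 98.2% with Gm10222, so the values of both are uncertain.

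A minority of the called genes lay in runs of neighbours. Counting called genes that start within 250 kb of the next, 15 runs of at least 4 held 70 of the 573. The number of runs that the spacing of genes alone would give was not tested. Some stretches were dense in genes, such as 4:155650655-156255657 with 5 called of 34 tested. By chromosome, 5.75% of the tested genes of chromosome 17, which carries the MHC, 5.10% of chromosome 13 and 1.08% of chromosome X were called, against 3.36% over all. One of the 2 longest runs, on 17:36029773-36129692, held 6 called of 7 tested genes of the MHC class I T region: H2-T23 and H2-T22 were lower, and Gm6034, Gm11127, Gm19684 (3.51 on the log2 scale) and H2-T10 (1.08) were higher, Gm11127 having no count in WT. H2-T10 and H2-T22 share 34.4% of the 50-base words of H2-T10, and their sum was still 2.32 ± 0.438 CPM (SD, n = 4) in NSG and 12.7 ± 0.846 CPM (SD, n = 4) in WT. The other run of 6, on 9:105687809-106431568, held Col6a6 (1.79) and Col6a5 (1.71) with higher and Col6a4 (−2.14) with lower levels, all of them chains of collagen VI, together with Ppm1m (−1.07), Poc1a (−1.25) and Rpl29. Col6a5 was not called without NSG 1, WT 1, WT 3 or WT 4 (adjusted p from 0.056 to 0.098). On 1:133309800-133380336 all 5 tested genes were lower, Golt1a (−2.73), Kiss1 (−3.01), Etnk2 (−1.52) and 2 read-through units named Gm28040 (−2.83 and −2.89). All of the 50-base words of Kiss1 lie in such a unit, so 4 of these 5 values rest on overlapping models. The fourth run, on 13:23531050-23698454, lay in a histone cluster, with Hist1h2bh (2.14) and Hist1h2ac (1.35) higher and Hist1h4h (−1.16), Hist1h4d (−2.13) and Hist1h4c lower. Most histone mRNA has no polyA tail, and the calls of Hist1h4h and Hist1h4d were each lost without any 1 of the resting libraries other than WT 3 (adjusted p from 0.056 to 0.15 and from 0.057 to 0.13).

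The remaining lists held few calls. Among 22 neuropeptide genes Gal, galanin, had a log2 fold change of 3.07 (SE 0.99, adjusted p = 0.049), lost without any 1 of the resting libraries other than NSG 2 and NSG 4 (1.51 without NSG 3), and Cort, cortistatin, of −1.04 (SE 0.25, adjusted p = 0.0074), which was −0.97 without NSG 3 and −0.99 without WT 1. Among 10 interneuron genes Adarb2 was the only call. By edgeR and by DESeq2 there were 0 calls among 30 splicing genes (median −0.11, 28 below 0), 16 oligodendrocyte genes (median 0.14), 12 pericyte and smooth muscle genes (median −0.10), 10 border-associated macrophage genes (median 0.55), 18 meningeal genes (median 0.54) and 13 choroid plexus genes (median 0.62). At an unadjusted p below 0.05, 10 splicing genes were lower, 3 oligodendrocyte genes were higher and 1 lower, 1 pericyte gene was higher and 1 lower, 2 macrophage genes and 5 meningeal genes were higher, and 0 choroid plexus genes were past it. Of all 17031 genes tested, 3894 were past it. All 13 choroid plexus genes lay above 0, in libraries whose Ttr level varied as given above.

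Of 366 zinc finger genes named Zfp, 9 were called higher and 5 lower (3.83% called, near the 3.36% of all genes, median −0.02). Those on chromosome 4 differed in both directions. Zfp985 held 0.848, 0.965, 0.879 and 0.619 CPM in NSG and had no count in WT, Zfp992 was at 1.19 to 1.64 CPM in NSG and 0.0825 to 0.318 CPM in WT (log2 fold change 2.82, SE 0.43, adjusted p = 4.7e-05), and Zfp982 (−3.88, SE 0.50, adjusted p = 3.4e-06) and Zfp991 (−2.93, SE 0.37, adjusted p = 2.4e-06) went the other way. Zfp993 shares 86.8% and Zfp992 43.6% of its 50-base words with Zfp991, and these 3 are uncertain for that reason.

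The Rag2-/- mice also lack T and B cells but have a C57BL/6 background. The paper describes a lack of NK cells and deficient cytokine signalling for NSG and not for Rag2-/- mice. Background and immune deficiency thus differ together between these 2 strains as well. None of the 573 genes was called between the 3 Rag2-/- and the 4 WT Ctrl libraries by edgeR, where 24 were higher and 11 lower at an unadjusted p below 0.05. That comparison called 0.00587% of all genes, the single gene B230118H07Rik. It shares the WT libraries with the comparison of NSG and WT. The median log2 fold change of Rag2-/- over WT was 0.11 for the 326 genes higher and −0.04 for the 247 genes lower in NSG, against 1.72 and −1.77 in NSG. These genes were chosen by their difference between NSG and WT, so the larger medians in NSG follow in part from that choice. Scg5 was at a mean of 166 CPM in Rag2-/-, Pttg1 at 19.3, Crym at 29.6, H2-T22 at 10.8 and Il7r at 0.396 CPM, each within or near the WT range. For the immediate early genes the median was −0.23 in Rag2-/- against −0.88 in NSG. Egr1 was at a mean of 674 CPM and Fos at 52.1 CPM in Rag2-/-.

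The stroked cortex of the same strains offered other libraries for the same contrast, 3 of NSG and 4 of WT. Among the genes higher in resting NSG cortex, 157 were also called higher after stroke, 48.2% of the 326 at rest and 56.1% of the 280 after stroke (89 when each contrast was fitted on its own). Among the lower genes, 161 were called again, 65.2% of the 247 at rest and 58.3% of the 276 after stroke (94 when each was fitted on its own), and no gene was called the other way by edgeR. The contrast after stroke called 3.26% of all genes, 1.64% higher and 1.62% lower. The share called again rose with the size of the difference at rest, from 76 of 204 higher genes between 1 and 2 on the log2 scale to 50 of 85 between 2 and 4 and 31 of 37 above 4, and from 64 of 136 to 63 of 75 and 34 of 36 lower genes. The sign was kept by 91.1% of the genes higher at rest and by 91.1% of those lower at rest, where 52.3% and 47.7% of all genes had that sign. Of the stroked WT libraries 2 had the title prefix TF, where the resting libraries had the prefix Imm2. What the prefixes stand for is not labelled. In a fit on the libraries of prefix Imm2 alone, 138 higher and 148 lower genes were called in both.

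Of 103 genes named by rule and called at rest, 74 were called in the same direction after stroke, 19 were not called with the same sign and 10 were not called with the sign turned. The log2 fold change after stroke was 1.91 for Scg5, 1.43 for Gabra2, 2.03 for Pla2g4e and 3.74 for Ccr6 (the largest adjusted p, that of Ccr6, being 1.0e-04), and −4.18 for Crym, −2.74 for Atp6v0c, −3.64 for H2-T22 and −4.66 for Pttg1. It was 0.11 (adjusted p = 0.89) for Serpina3n, 0.76 (adjusted p = 0.33) for Il7r and −0.38 (adjusted p = 0.55) for Htr2c. By log2 fold change after stroke, Lpl (0.67, adjusted p = 0.19), Nnat (0.66, adjusted p = 0.19), Necab2 (0.16, adjusted p = 0.80) and Lhx8 (0.32, adjusted p = 0.85) were not called either. The same held for the immune and stress genes Tlr6 (0.63, adjusted p = 0.15), Nlrp1b (−0.70, adjusted p = 0.16), Ccl24 (0.19, adjusted p = 0.82) and Hspa1a (−0.20, adjusted p = 0.62). The sign was turned for Htr2c, Cort, Tph2, Hist1h4h and 6 immediate early genes. Il2rg, level at rest, had a log2 fold change of −1.67 (adjusted p = 0.0026) after stroke.

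Immediate early genes lay on the other side after stroke. Their median was 0.65, with 24 of 25 above 0, 3 called higher and 0 lower by edgeR, against −0.88 with 0 of 25 above 0 at rest. In the fit on the libraries of prefix Imm2 alone the median after stroke was 0.67, with 24 of 25 above 0 and 0 called. The difference between both contrasts, tested gene by gene as an interaction, passed an adjusted p of 0.05 for 5 genes (0.0294% of those tested), of which 2 were immediate early genes: Nr4a1 (difference 2.30 on the log2 scale, adjusted p = 0.035) and Egr1 (1.91, adjusted p = 0.027). With that prefix alone both differences kept their sign (2.09 and 1.61) with adjusted p values of 0.34 and 0.30, and the number of genes passing ranged from 0 to 255 when single libraries were left out, so these differences were not held by every library.

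**Figure D5:**
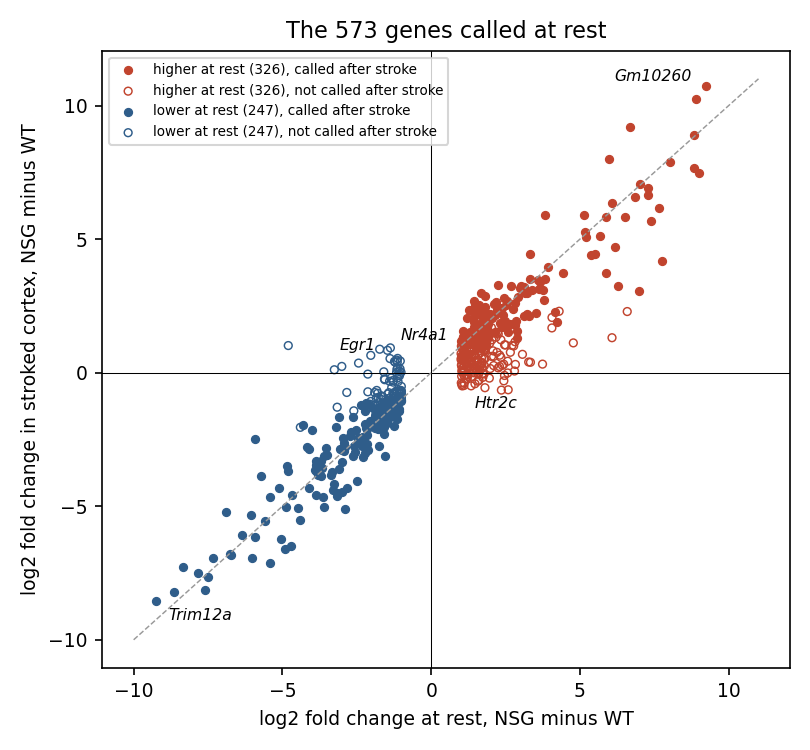
Each of the 573 genes called at rest, with its log2 fold change of NSG over WT at rest on the horizontal axis and in stroked cortex on the vertical axis. Filled points were also called after stroke, open points were not, red marks genes higher and blue genes lower at rest, and the dashed line marks equal values; Egr1 and Nr4a1 lie above 0 after stroke, while nearly all genes beyond 4 at rest are filled and near the line.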

How the data were processed

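RNA of mouse cortex was sequenced by the authors after polyA selection with a stranded TruSeq kit. The authors deposited 1 table of whole-number counts per gene for each library; the aligner, the counting tool, its use of strand and the genome build are not given in the sources used here. Of 25746 gene IDs, 25712 were found in GENCODE M21 (GRCm38), which gave the positions. Library totals of the 8 resting libraries ranged from 34728335 to 41093219 counts, so 1 count was worth about 0.0285 CPM in WT 1. Groups were taken from the labels. Counts of all 29 libraries in 8 groups were fitted with the quasi-likelihood test of edgeR 4.0.16 (R 4.3.3, limma 3.58.1; TMM, filterByExpr), with Benjamini-Hochberg adjustment over 17031 genes. Calls needed an adjusted p under 0.05 together with a log2 fold change beyond 1 in either direction, and the SE is the log2 fold change over the root of F. On simulated counts of this comparison (16793 genes), 194 of 200 changed genes were recovered with 3 false calls. The planted changes were all clearly beyond the fold limit, left out genes of the lowest levels and had independent noise for each gene. Of the 573 calls, 276 had a mean below 1 CPM, so this recovery does not carry over to low or borderline calls. Copies were found by shared 50-base words of annotated transcripts, sampled 1 in 4. Genes named were the 12 with the largest difference and the 10 with the highest level in each direction, and up to 4 per list, among protein-coding genes without overlap, at least 1 CPM and no provisional symbol; Fosb, Ptgs2, P2ry13, B2m, Gfap, Ighm, Cd3e, copies, partners and genes in runs were named after their values were seen. The members and gene lists were chosen with earlier results of these data known, and 2 listed genes are not reported here and were left out of list counts and marker sums. Alternatives were other normalizations (RLE), filters, sample sets, DESeq2 1.42.0, a test against the fold limit (glmTreat), a replicate block, a Ddx3y covariate and leaving out each library; the alternatives on striatal markers (Drd1, Drd2 and Adora2a) and on shared words were chosen after seeing the data. Same-numbered NSG and WT libraries did not deviate together (r = −0.233, 0.118 and −0.154), so the numbers do not pair them.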

Additional observations from a re-analysis of the deposited data

Results flagged for a closer look

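Dixon's criterion was applied to sets of 4 libraries of the named genes, leaving out sets whose largest count was below 10. In 13 of the sets tested, out of at most 280, 1 library stood apart from the other 3. The sets left out were not counted, so no share is given and none was compared with chance. WT 3 was the library apart for Tph2, the serotonin-synthesis enzyme gene (19.614 CPM), Pax5, a B cell and midbrain factor gene (3.591 CPM), Mbp, the myelin gene (1647.6 CPM), and Cox6a2 (6.4474 CPM). NSG 3 was apart for Pax5 (0.39684 CPM) and H2-T23 (1.7858 CPM), NSG 2 for Hba-a1 (26.915 CPM) and NSG 4 for Ly6a (4.4549 CPM). WT 4 was apart for Prkdc (27.761 CPM) and Rps18 (54.169 CPM), WT 5 for Abcb1b (2.6111 CPM) and Ly6a (9.0703 CPM), and WT 1 for AC149090.1 (307.91 CPM).

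The difference of NSG and WT changed between resting and stroked cortex for 5 genes by the interaction term of the edgeR fit, written as the log2 change after stroke minus that at rest. It was 2.30 for Nr4a1, 1.91 for Egr1, 0.783 for Gatm, the creatine synthesis gene, 0.754 for Vegfa, the endothelial growth factor gene, and −0.883 for Fam214a. None of the 5 passed in the fit on the libraries of title prefix Imm2 alone, that of the resting libraries.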

How the results depend on the processing

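No call changed direction under any alternative. Of 103 named genes called, 48 stayed called under every alternative and 55 lost the call under at least 1. The 573 calls (326 higher, 247 lower) became 188 (87, 101) when tested against the fold limit, 285 (150, 135) at a mean of at least 1 CPM and 1662 (824, 838) without a minimum fold. A fit with the replicate block, on the 6 libraries whose number occurs in both strains, gave 318 (180, 138), and the same 6 without the block gave 411 (237, 174). Without the 2 NSG libraries highest in striatal markers, 212 genes were higher, and with these markers as a covariate 158 were lower. Leaving out single libraries gave 474 to 614 calls, 237 to 352 higher and 222 to 262 lower. The 60 calls in gene lists became 21, 38, 138 and 40 in the order above (49 without the block) and 50 to 62 without single libraries. The 8 immediate early genes became 3 with Ddx3y and 2 with the striatal markers as a covariate, 0 against the fold limit, 15 without a minimum fold, 2 with the replicate block, 4 without it and 3 to 16 without single libraries. A fit on the 8 resting libraries alone called 521 genes (324 higher, 197 lower), 6 of them immediate early genes called lower. Fos, Egr2 and Tph2 were not called in that fit. The genes called again after stroke, 157 higher and 161 lower, were 70 and 89 at a mean of at least 1 CPM, 89 and 94 in separate fits, and 140 to 153 and 151 to 173 without single libraries. The 5 genes whose difference changed with stroke were 138 with DESeq2, 0 with the libraries of prefix Imm2 alone, 0 without the libraries highest in striatal markers and 0 to 255 without single libraries. With 500 kb, 27 runs held 121 genes. The cause of these changes was not tested, beyond the fewer samples or genes that some settings use. Below about 1 CPM, counts of a few reads limit the precision.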
